A study of Mus musculus with 2 samples.

Results

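The 9 genes studied encode lectin-like receptors of natural killer (NK) cells and were followed in T cells: Klrk1, Klrc2, Klrc1, Klrd1, Klre1, Klra7, Klra9, Klrg1 and Klrb1c. They were taken by name from a list, and all 9 were present among the 32285 genes of both matrices. The cells were TCRβ+ cells, which carry the αβ T cell receptor, sorted from the pooled spleen and peripheral (cervical and inguinal) lymph nodes of 1 Foxp3Cre WT mouse and 1 Foxp3-Cre mouse with Tet2/3 fl/fl alleles and severe disease (DKO-severe), both 14 weeks old. Both mice carried Cre expressed from Foxp3. In the DKO-severe mouse this Cre deletes floxed Tet2 and Tet3, DNA dioxygenases, in cells that express Foxp3 or once did, and the severe form was defined by the number of leukocytes in spleen and lymph nodes. CD8+ T cells rarely express Foxp3, and loss of Tet2 and Tet3 within the cells described here was not measured. Since each genotype is represented by a single mouse, variation between animals cannot be estimated, no test between genotypes was possible, and every interval below covers counting error only.

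NK receptors let a lymphocyte read the state of another cell. Inhibitory members bind MHC class I or cadherins and raise the threshold for killing, whereas activating members bind ligands that stressed or infected cells display. On CD8+ T cells these genes are known to come on after repeated antigen encounter or under the cytokine IL-15, and on innate-like T cells such as NKT cells they are part of the resting program. By role, Klrk1 (NKG2D) and Klrc2 (NKG2C) are activating receptors, Klrc1 (NKG2A) is an inhibitory receptor, and Klrd1 (CD94) is the chain with which NKG2A and NKG2C pair. Klre1 encodes another receptor of the same family, Klra7 and Klra9 are Ly49 genes whose products bind MHC class I, Klrg1 binds cadherins and marks short-lived effector T cells, and Klrb1c encodes NK1.1, the marker used to define NK and NKT cells.

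All 9 genes lie on chromosome 6, and the 8 other than Klrg1 lie within 1.45 Mb of each other, in the NK gene complex (GRCm38, GENCODE annotation). In order, Klrg1 lies at chr6:122270596-122282882 on the minus strand, Klrb1c at chr6:128778485-128789215 on the minus strand, Klre1 at chr6:129577905-129585827 on the plus strand, Klrd1 at chr6:129591782-129598775 on the plus strand and Klrk1 at chr6:129610323-129623864 on the minus strand. Klrc2 follows at chr6:129647496-129660689, Klrc1 at chr6:129666015-129678973, Klra9 at chr6:130178675-130193112 and Klra7 at chr6:130218605-130233322, all on the minus strand. The kit reads the 3′ ends of transcripts, so near-identical ends can share reads. Of the 90-base windows in the last 500 bases of its transcripts, Klrc1 shared 21.9% with Klrc2, Klrc2 shared 6.36% with Klrc1 and Klrc3, Klra9 shared 12.4% with other Ly49 genes, Klra7 shared 6.57% with a Ly49 pseudogene, and Klrb1c shared 11.4% with Gm44511 and Klrb1a. The values of these 5 genes are therefore uncertain to the extent that counting dropped or moved such reads. Klrk1, Klre1, Klrd1 and Klrg1 shared none.

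The 250 bases upstream of the start are printed for 5 genes because each holds the core hexamer of the RUNX factors, to which RUNX3, a regulator of CD8+ T cells, belongs. The sequences are RefSeq promoter entries on GRCm38.p6, written in the direction of the gene, with the hexamer TGTGGT or its reverse complement ACCACA in capitals. They cover chr6:129623865-129624114 (minus strand) for Klrk1, chr6:129577963-129578212 (plus strand) for Klre1, chr6:129678974-129679223 (minus strand) for Klrc1, chr6:129660597-129660846 (minus strand) for Klrc2 and chr6:128788642-128788891 (minus strand) for Klrb1c.
Klrk1: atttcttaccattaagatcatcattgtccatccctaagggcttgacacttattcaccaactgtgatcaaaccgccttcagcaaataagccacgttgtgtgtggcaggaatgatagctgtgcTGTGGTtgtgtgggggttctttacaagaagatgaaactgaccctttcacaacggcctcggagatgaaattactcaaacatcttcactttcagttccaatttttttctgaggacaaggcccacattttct
Klre1: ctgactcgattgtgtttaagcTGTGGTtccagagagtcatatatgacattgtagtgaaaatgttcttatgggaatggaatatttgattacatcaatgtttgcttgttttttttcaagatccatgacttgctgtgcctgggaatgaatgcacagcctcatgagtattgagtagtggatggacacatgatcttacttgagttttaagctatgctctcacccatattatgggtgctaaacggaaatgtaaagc
Klrc1: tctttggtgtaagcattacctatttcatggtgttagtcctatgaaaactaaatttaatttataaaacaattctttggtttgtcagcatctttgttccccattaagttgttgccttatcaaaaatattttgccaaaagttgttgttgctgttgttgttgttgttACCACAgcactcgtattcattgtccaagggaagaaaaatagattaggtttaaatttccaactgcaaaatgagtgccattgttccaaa
Klrc2: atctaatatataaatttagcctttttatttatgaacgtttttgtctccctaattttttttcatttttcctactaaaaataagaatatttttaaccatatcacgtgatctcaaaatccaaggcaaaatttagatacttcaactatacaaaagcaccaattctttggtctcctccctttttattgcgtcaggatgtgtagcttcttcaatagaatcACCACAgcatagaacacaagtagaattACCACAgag
Klrb1c: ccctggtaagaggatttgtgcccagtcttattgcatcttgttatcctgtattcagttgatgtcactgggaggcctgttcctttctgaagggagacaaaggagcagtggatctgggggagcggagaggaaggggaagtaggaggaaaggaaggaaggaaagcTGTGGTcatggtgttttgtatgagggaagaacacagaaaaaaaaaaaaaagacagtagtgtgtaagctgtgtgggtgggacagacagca
The hexamer begins 129 bases before the start in Klrk1, 229 in Klre1, 87 in Klrc1, 36 and 9 in Klrc2 and 89 in Klrb1c. Klrd1 and Klrg1 have no entry. Klrk1, Klrc1, Klrb1c and Klra9 have 1 entry each and Klre1, Klrc2 and Klra7 have 2, and the first is printed. Of these 10 entries 6 held the hexamer on either strand, while 14.0% of all 32851 entries did. It was in both entries of Klrc2, which overlap and hold the same 2 sites. It was in the first but not the second of Klre1, and no entry of Klra7 or Klra9 held it. The T-box core AGGTGTGA, or TCACACCT on the other strand, was in 1.12% of all entries and in none of the 7. A match to 6 letters is a description of the sequence and shows no binding.

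Cells were placed in gates by their own UMIs (unique molecular identifiers, 1 per captured molecule). Cd8 cells had at least 1 UMI of a Cd3 gene and of Cd8a or Cd8b1, none of Cd4, and fewer than 2 of Zbtb16, and they were split by whether Gzma, Gzmb and Gzmk, the genes of 3 granzymes, summed to 2 or more UMIs. Cells with a sum of 0 or 1 are called cells without granzyme. Cd4 cells mirrored the Cd8 gate, and Cd3-positive cells with 2 or more UMIs of Zbtb16, the factor that defines NKT and other innate-like T cells, formed the innate-like gate. After filters, 6583 WT and 6359 DKO-severe cells remained, with medians of 5616 and 8066 UMIs. The granzyme gate held 30 WT and 431 DKO-severe cells (0.456% and 6.78% of retained cells), Cd8 cells without granzyme 3016 and 1298, the innate-like gate 78 and 111, and the Cd4 gate 1721 and 2693. Levels are given as CPM, the UMIs of a gene per 1000000 UMIs of the gate, with an exact 95% Poisson interval. Shares of cells with a UMI were taken after each cell was thinned to 3800 UMIs and gated again on its thinned counts, so they describe another set of cells than the CPM. This gave 14 and 298 granzyme cells, 2904 and 1278 Cd8 cells without granzyme, 48 and 58 innate-like cells and 1274 and 1918 Cd4 cells. A gene is called higher or lower where its log2 ratio was at least 1 in size with an exact 95% interval that left out 0, among genes with 30 or more UMIs over both groups.

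Across all Cd8 cells the receptor genes were higher in the DKO-severe mouse as a group. Of the 9, 8 were called higher, against 4.8% of 12585 genes, with a median log2 ratio of 3.14 beside -0.03 over all genes. Klra9 was highest in ratio (4.04), followed by Klrg1 (3.89) and Klrc1 (3.83), and Klrd1 was not called (0.36). The 30 and 431 granzyme cells entered these sums, so the ratio mixes the number of such cells with the level in each, and cells with and without granzyme are described apart below.

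**Figure D1:**
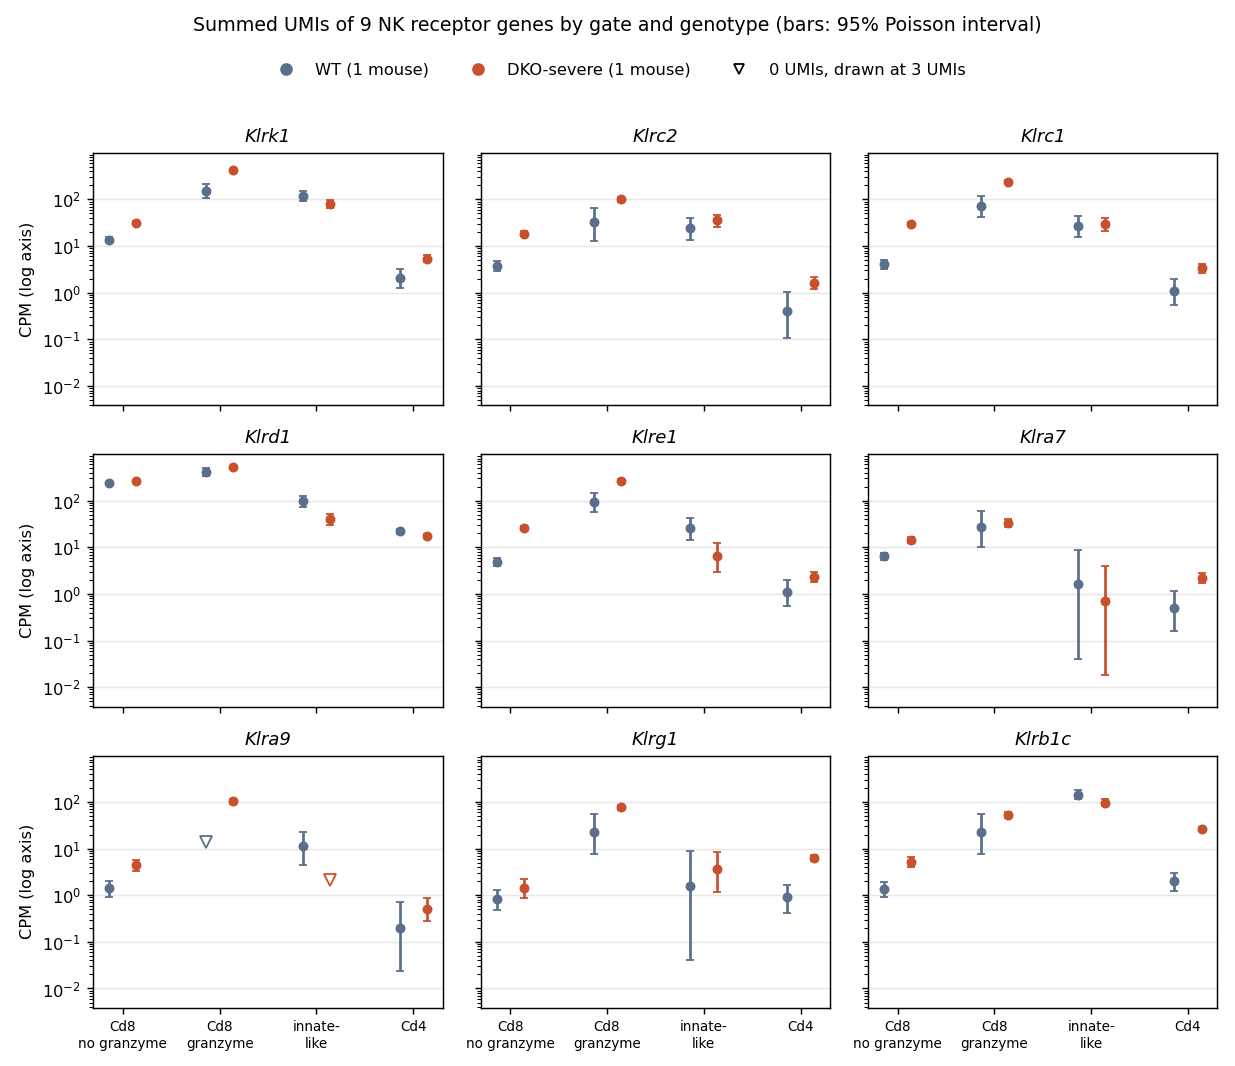
Level of each of the 9 genes in 4 gates: the y axis is CPM on a log scale, the x axis the gate, points are the summed UMIs of 1 mouse per genotype and bars are exact 95% Poisson intervals; open triangles mark 0 UMIs, drawn at the level of 3 UMIs. DKO-severe granzyme cells held the highest point for 8 genes, from 33.4 CPM for Klra7 to 534 for Klrd1, while Klrb1c was highest in innate-like cells.

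Granzyme-bearing Cd8 cells held more of the activating receptor Klrk1 in the DKO-severe mouse. Klrk1 measured 153 CPM in WT (interval 105 to 214, 33 UMIs) and 418 CPM in DKO-severe (395 to 442, 1277 UMIs). The log2 ratio was 1.45 (0.96 to 2.00), and the intervals of the levels did not overlap. At equal depth Klrk1 was found in 3 of 14 WT cells (21.4%, exact binomial interval 4.66 to 50.8) and in 60.7% of the 298 DKO-severe cells (54.9 to 66.3). Klrc2, the activating partner of CD94, measured 32.4 CPM in WT (13.0 to 66.7, 7 UMIs) and 101 CPM in DKO-severe (89.6 to 112), and the log2 ratio was 1.63 (0.57 to 2.96). Klrc2 UMIs occurred in 1 of 14 cells (WT) and in 31.9% of 298 cells (DKO-severe).

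Inhibitory Klrc1 was also higher, with 74.0 CPM in WT (42.3 to 120, 16 UMIs) and 239 in DKO-severe (222 to 257) and a log2 ratio of 1.69 (0.98 to 2.51). Klre1 measured 92.5 CPM in WT (56.5 to 143, 20 UMIs) and 267 in DKO-severe (249 to 286), and its log2 ratio was 1.53 (0.89 to 2.25). Activating and inhibitory genes were thus both present at higher levels. Klrg1, the effector marker, measured 23.1 CPM in WT from 5 UMIs (7.51 to 54.0) and 77.3 CPM in DKO-severe (67.7 to 87.8), with a log2 ratio of 1.74 (0.50 to 3.38). Its share was 14.3% in WT and 26.8% in DKO-severe (21.9 to 32.3), and the intervals of the share overlapped.

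The Ly49 genes were split. Klra9 had no UMI in the 30 WT cells (exact interval 0 to 17.1 CPM) and 103 CPM in DKO-severe cells (92.4 to 116, 316 UMIs). With WT set at 3 UMIs (13.9 CPM) the ratio was 7.45-fold, which is a convention and not a lower bound. Klra9 was found in 15.4% of DKO-severe cells (11.5 to 20.0), and no WT cell of 14 had it, so that a WT share up to 23.2% remains possible. Klra7 measured 27.8 CPM in WT from 6 UMIs and 33.4 CPM in DKO-severe cells, and its log2 ratio of 0.27 (-0.90 to 1.75) was not called. A single cell carried 83.3% of the Klra7 UMIs in WT and another 40.2% in DKO-severe, where 4.70% of cells had the gene.

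Klrd1 was the most abundant member in both mice. It measured 412 CPM in WT (331 to 507) and 534 CPM in DKO-severe (509 to 561), and its log2 ratio was 0.38 (0.07 to 0.70). Klrd1 UMIs occurred in 8 of 14 cells (WT) and in 77.2% of 298 cells (DKO-severe). Klrb1c measured 23.1 CPM in WT from 5 UMIs, 60% of them in 1 cell, and 52.1 CPM in DKO-severe, with a log2 ratio of 1.17 whose interval (-0.08 to 2.81) held 0.

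In all, 6 of the 9 genes were called higher in DKO-severe granzyme cells, against 2.67% of 8213 genes, with a median log2 ratio of 1.53 beside -0.03 over all genes. Some markers of other cells were also higher in this gate. The 6 γδ T cell genes summed to 9.25 CPM in WT (4 of 6 at 0) and 101 CPM in DKO-severe (1 of 6 at 0). Tcrg-C2 (42.9 CPM) and Trgv2 (33.1 CPM) were highest in DKO-severe, and Trdc stood at 4.63 and 4.26 CPM. Myeloid markers summed to 23.1 CPM in WT (4 of 6 at 0) and 164 CPM in DKO-severe (0 of 6 at 0), of which Lyz2 gave 397 of 500 UMIs. B cell markers went the other way, at 310 CPM in WT (2 of 6 at 0) and 161 CPM in DKO-severe (0 of 6 at 0). Granulocyte markers measured 74.0 and 85.4 CPM. The part of the γδ genes in the ratios was not tested. Without cells that carried 2 or more UMIs of B cell, myeloid or granulocyte markers, 9 WT and 223 DKO-severe cells remained, 5 members were called, and the log2 ratio of Klrk1 was 2.20. These calls depended on where the granzyme gate was drawn: with 4 or more granzyme UMIs, 10 WT and 353 DKO-severe cells remained and 1 of the 9 genes, Klra9, was called. The log2 ratio of Klrk1 was then 0.65, that of Klrc1 0.96, that of Klre1 0.16 and that of Klrc2 0.20. The WT values also rest on few cells, since 1 cell gave 39.4% of the WT Klrk1 UMIs and 50% of those of Klre1.

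**Figure D2:**
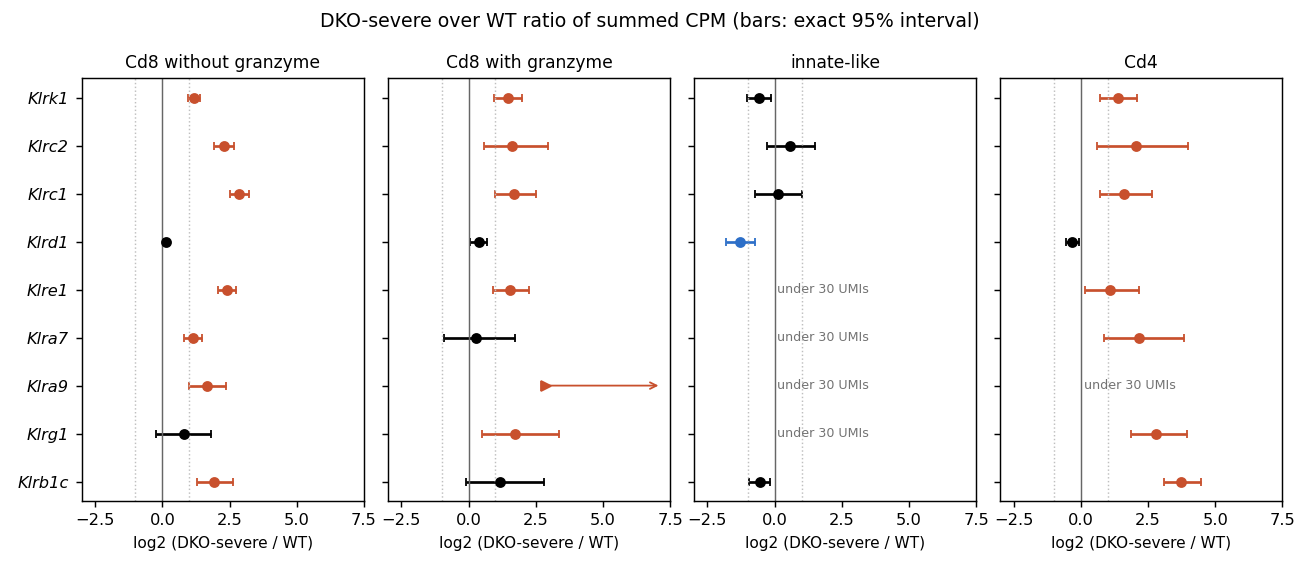
Log2 ratio of DKO-severe over WT CPM (x axis) for each gene (y axis) in 4 gates, 1 mouse per genotype; bars are exact 95% intervals, colored points are called, black points are not, the arrow is a lower bound for Klra9, and dotted lines mark a log2 ratio of 1 in size. Called genes lie to the right of 0 in both Cd8 gates and in Cd4 cells, and Klrd1 lies to the left in innate-like cells (-1.28).

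Cd8 cells without granzyme (0 or 1 granzyme UMI), which include the naive CD8+ pool, held far less of these genes than granzyme cells, except for Klrd1. Within this gate 7 of the 9 genes were called higher in DKO-severe, against 3.31% of 12359 genes, and the median log2 ratio was 1.66 beside -0.07 over all genes. Klrc1 measured 4.10 CPM in WT (3.28 to 5.07) and 29.6 in DKO-severe (26.8 to 32.7), a log2 ratio of 2.85 (2.51 to 3.21). Klre1 measured 4.92 CPM (4.01 to 5.97) and 26.0 (23.3 to 28.8), a log2 ratio of 2.40. Klrc2 followed with 3.76 and 18.5 CPM (2.30).

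The shares of cells moved with these levels. At equal depth the Klrc1 share was 0.999% in WT (0.670 to 1.43) and 8.37% in DKO-severe (6.91 to 10.0), and that of Klre1 1.03% and 6.26%. Klrk1 was found in 3.51% (2.87 to 4.25) and 7.67% (6.27 to 9.27), with levels of 13.8 and 31.3 CPM and a log2 ratio of 1.18 (0.96 to 1.40). Split by Il2rb, a chain of the IL-15 receptor, this ratio was 0.77 in cells with Il2rb and 0.58 in cells without. The remaining called genes were low in both mice: Klra7 measured 6.42 and 14.1 CPM, Klra9 1.40 and 4.41, and Klrb1c 1.35 and 5.16. Klrg1 was nearly absent from this gate, with 17 WT UMIs (0.820 CPM) and 19 DKO-severe UMIs (1.42 CPM), and was not called.

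Klrd1 measured 245 CPM in WT (238 to 252) and 267 CPM in DKO-severe (258 to 276), and its shares of 55.1% (53.3 to 56.9) and 54.1% (51.3 to 56.8) of cells overlapped. CD94 transcript was thus present in most Cd8 cells of both mice with or without its partner genes, and 83.4% of all WT Klrd1 UMIs lay in Cd8 cells without granzyme. Granulocyte transcripts (6 genes, among them S100a8 and Ngp, none at 0) summed to 77.9 CPM (WT) and 1720 CPM (DKO-severe) in this gate but to 74.0 and 85.4 CPM in granzyme cells, and their part in the differences without granzyme was not tested.

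The contrast between granzyme-bearing and other Cd8 cells was made within each mouse, where hashtag, library and animal are shared. In the DKO-severe mouse all 9 genes were called higher in granzyme cells, against 6.72% of 11078 genes, with a median log2 ratio of 3.33 beside 0.18 over all genes. Klrg1 had the largest of the 9 ratios, 5.76 (5.09 to 6.52), followed by Klra9 with 4.55 (4.15 to 4.98), Klrk1 with 3.74 (3.58 to 3.9) and Klre1 with 3.36 (3.18 to 3.55). Klrd1 had the smallest, 1.00 (0.92 to 1.09), at the limit of a call, and Klra7 measured 1.24 (0.88 to 1.59). With the single highest cell left out, Klrd1 and Klra7 were no longer called.

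In the WT mouse the contrast rests on far fewer molecules. There 6 of the 7 genes with 30 or more UMIs were called, against 4.13% of 11434 genes, with a median of 3.47 beside 0.42 over all genes. The log2 ratio was 3.47 for Klrk1 (2.90 to 3.99), 4.23 for Klre1 (3.46 to 4.93), 4.17 for Klrc1 (3.30 to 4.96) and 0.75 for Klrd1, which was not called. With cells that carried 2 or more UMIs of other cell types' markers left out, 9 WT granzyme cells remained. The 3 genes then called were Klrk1, Klre1 and, newly, Klrd1, while Klrc1, Klrc2, Klra7 and Klrb1c were no longer called. In the DKO-severe mouse the granzyme cells had the lower median depth, 5539 UMIs against 9959.5 without granzyme.

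**Figure D3:**
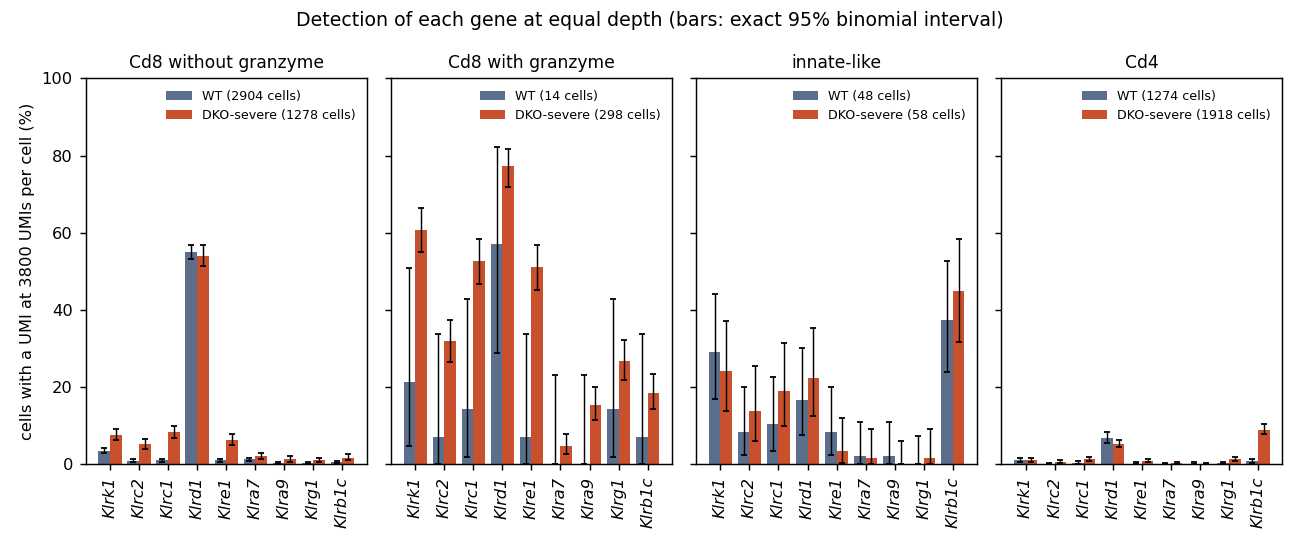
Share of cells with at least 1 UMI of each gene (y axis, percent) after thinning to 3800 UMIs per cell, by gene (x axis), gate (panel) and genotype (color), with exact 95% binomial intervals. Klrd1 stands out in both Cd8 gates (77.2% of DKO-severe granzyme cells), the other genes reach 4.70% to 60.7% in DKO-severe granzyme cells, and Klrb1c leads in innate-like cells (44.8% of DKO-severe cells).

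The share of cells with a UMI was read against B lineage cells, which should lack these genes and show the level that free RNA gives. Of 201 DKO-severe B lineage cells (median 5135.5 UMIs), 2.49% had Klrd1 (0.813 to 5.71), 0.498% had Klra9 (0.0126 to 2.74) and none had any of the other 7, with an exact upper limit of 1.82% each. The DKO-severe granzyme shares, from cells of a like median depth (5539 UMIs), were all above these values. Only 14 WT B lineage cells (median 4696 UMIs) were at hand, with 1 cell each for Klrc2, Klrd1 and Klrb1c, so the WT background is not well measured. Klrc2 and Klrb1c lay in the same cell, and the 15 WT B lineage cells gated on full counts held no UMI of either. The shares of Klra9, Klrg1 and Klrb1c in DKO-severe Cd8 cells without granzyme (1.25%, 1.02% and 1.72%) lay under the upper limits set by the DKO-severe B lineage cells. By share they cannot be told apart from background, and the interval of Klra7 there (2.03%, 1.33 to 2.97) held the limit. By CPM, the intervals of Klrb1c (4.02 to 6.53) and Klra7 (12.2 to 16.3) in this gate lay above that of DKO-severe B lineage cells (0 to 2.46 for each). The CPM intervals of Klra9 and Klrg1 overlapped those of the B lineage cells.

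Several receptor genes were found in the same cell. Klrd1 was set aside here because most Cd8 cells have it. Of the other 8 genes, at least 1 was found in 83.9% of DKO-severe granzyme cells (79.2 to 87.9), at least 2 in 68.1% (62.5 to 73.4), at least 3 in 52.0% (46.2 to 57.8) and at least 4 in 34.6% (29.2 to 40.3). Without granzyme, at least 2 were found in 7.90% of DKO-severe cells (6.48 to 9.52) and in 1.31% of WT cells (0.928 to 1.79). Among the 14 WT granzyme cells, 4 had at least 1 and 3 at least 2. In B lineage cells of the DKO-severe mouse, 0.498% had at least 1.

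**Figure D4:**
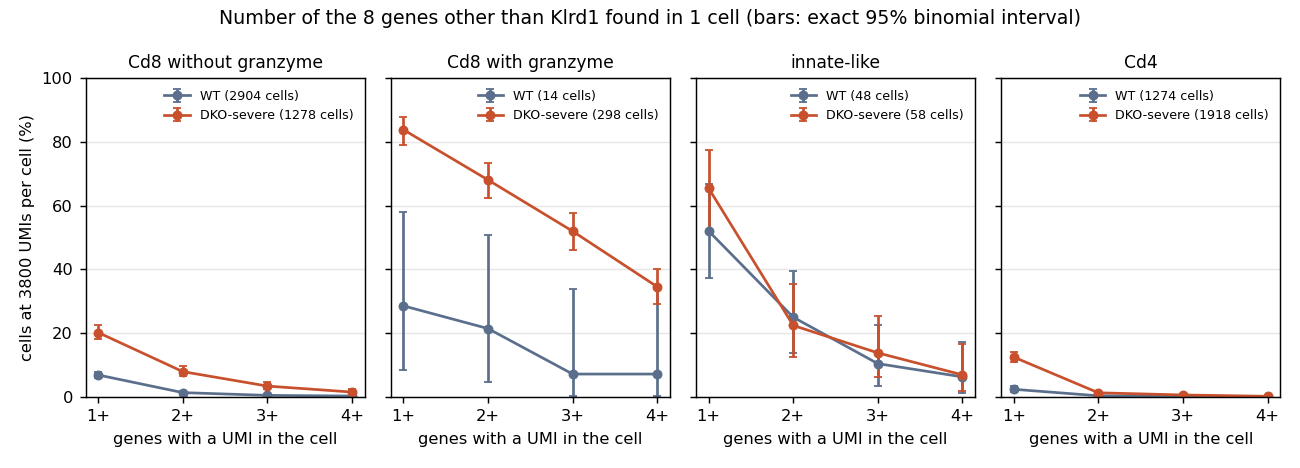
Share of cells (y axis, percent) in which at least 1, 2, 3 or 4 of the 8 genes other than Klrd1 had a UMI at 3800 UMIs per cell (x axis), by gate (panel) and genotype (color), with exact 95% binomial intervals. The DKO-severe granzyme curve falls from 83.9% to 34.6%, and the Cd4 curves lie at 12.5% or less.

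Some pairs of genes were found together more often in the DKO-severe granzyme cells, while for others the intervals overlapped. Klre1 was found in 69.6% of cells with Klrk1 (62.4 to 76.2) and in 22.2% of those without (15.1 to 30.8), and Klrc1 in 63.0% and 36.8%. Klrg1 was found in 34.3% of cells with Klrk1 (27.4 to 41.7) and in 15.4% of those without (9.38 to 23.2). Klrc2 was found in 45.2% of cells with Klrc1 (37.3 to 53.4) and in 17.0% of those without (11.2 to 24.3), although shared 3′ ends could add to this pair. With its partner chain Klrd1, Klrc1 was found in 56.1% of cells (49.4 to 62.6) and without it in 41.2% (29.4 to 53.8), and these intervals overlapped. Those of Klrc2 with and without Klrd1 also did (35.7% and 19.1%). With and without Klrk1, intervals overlapped for Klrb1c (22.1% and 12.8%), Klra9 (19.9% and 8.55%) and Klra7 (6.63% and 1.71%). So did those of Klra9 with and without Klra7 (28.6% and 14.8%). Klrc1 was found in 75.0% of cells with Klrg1 (64.1 to 84.0) and in 44.5% of the others (37.8 to 51.4). These shares describe cells of 1 mouse, which are not replicates.

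In innate-like cells NK1.1 led, and the ratios of the 5 members with enough UMIs had both signs. Klrb1c, the NK1.1 gene, was the leading member, with 143 CPM in WT (115 to 176) and 96.8 CPM in DKO-severe (81.1 to 115), levels above those of every Cd8 and Cd4 gate and with intervals that overlap none of theirs. Its log2 ratio was -0.56 (-0.96 to -0.16), yet its share of cells was 37.5% in WT (24.0 to 52.6) and 44.8% in DKO-severe (31.7 to 58.5), so no order is read from the share. Klrk1 measured 119 CPM in WT (93.4 to 149) and 78.8 in DKO-severe (64.7 to 95), with a log2 ratio of -0.59 (-1.03 to -0.15), and was found in 29.2% and 24.1% of cells. These signs were not shared by all cells of the gate. In the innate-like cells with neither Cd4 nor Cd8 UMIs (50 WT and 56 DKO-severe cells) the log2 ratio was 0.38 for Klrk1 (-0.20 to 0.98) and 0.28 for Klrb1c (-0.25 to 0.83), both with intervals that held 0. In those with Cd4 (18 and 45 cells) it was -2.61 for Klrk1 (-3.51 to -1.73) and -1.77 for Klrb1c (-2.51 to -1.02), and 4 of the 18 WT cells held all 28 Klrk1 UMIs. Those with Cd8 numbered 6 in each mouse, with log2 ratios of 0.36 for Klrk1 and -1.61 for Klrb1c whose intervals held 0.

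Klrd1 was the only member called lower, at 98.0 CPM in WT (75.0 to 126, 61 UMIs) and 40.5 CPM in DKO-severe (30.6 to 52.6, 56 UMIs), a log2 ratio of -1.28 (-1.83 to -0.73). This was 1 of 5 genes with enough UMIs, against 1.88% of 7647 genes called lower, and the median of the 5 was -0.56 beside 0.06 over all genes. The call did not hold when gates were set on thinned counts or when each cell weighed equally, and the ratio was 0.31 with the opposite sign once cells with another cell type's markers were left out (36 WT and 31 DKO-severe cells). At equal depth the share of cells with Klrd1 was 16.7% (WT) and 22.4% (DKO-severe), against the direction of the CPM. The NKG2 genes measured 27.3 and 29.6 CPM (Klrc1) and 24.1 and 35.4 CPM (Klrc2), with intervals of the ratio that held 0.

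The remaining members were scarce in this gate. Klre1 had 16 (WT) and 9 (DKO-severe) UMIs, Klrg1 had 1 and 5, Klra7 had 1 in each mouse, and Klra9 had 7 in WT, all in 1 cell, and 0 in DKO-severe. Of the invariant chain of NKT cells only 0 to 2 Trav11 UMIs were found in any gate, which a 3′ kit does not read well, and the innate-like cells are therefore named by the Zbtb16 rule alone. Summed granulocyte markers measured 72.3 CPM (WT) and 1978 CPM (DKO-severe) in this gate, myeloid markers measured 974 and 1057 CPM, and their part in these ratios was not tested.

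Klrk1, Klre1, Klrc1, Klrc2 and Klrd1 had their lowest level in the Cd4 cells of each mouse, whereas NK1.1 and Klrg1 did not in the DKO-severe mouse. There Klrb1c and Klrg1 were above the Cd8 cells without granzyme (5.16 and 1.42 CPM), with intervals apart, and Klra7 and Klra9 (2.24 and 0.513 CPM) overlapped the innate-like cells, which held 1 and 0 UMIs. Klrb1c measured 1.98 CPM in WT (1.21 to 3.06, 20 UMIs) and 26.5 CPM in DKO-severe (24.6 to 28.5, 724 UMIs), a log2 ratio of 3.74 (3.1 to 4.46). At equal depth its share was 0.785% in WT (0.377 to 1.44) and 8.97% in DKO-severe (7.73 to 10.3), against 0 of 201 B lineage cells. Of all Klrb1c UMIs in the DKO-severe mouse, 46.3% lay in the Cd4 gate, compared with 7.04% in WT. Of the 20 UMIs in WT, 1 cell held 20.0%, whereas in DKO-severe the highest cell held 1.24% of the 724.

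The other Cd4 ratios rest on a small number of molecules. In all, 7 of 8 tested genes were called higher, against 18.3% of 13536 genes, with a median log2 ratio of 1.83 beside 0.15 over all genes. Klrg1 measured 0.893 CPM (0.408 to 1.69) and 6.27 CPM (5.36 to 7.28), a log2 ratio of 2.81 (1.85 to 3.96), and was found in 0.235% and 1.30% of cells. Klrk1 measured 2.08 and 5.39 CPM, yet its shares of 1.02% and 1.04% were alike. Klrc1 measured 1.09 and 3.33 CPM, Klre1 1.09 and 2.35, Klrc2 0.397 and 1.65, and Klra7 0.496 and 2.24. Apart from Klrb1c, the DKO-severe shares of the called genes, at most 1.30%, lay under the 1.82% that the B lineage cells allow. These shares cannot be told apart from background. By CPM, the intervals of Klrg1 (5.36 to 7.28) and Klrc1 (2.68 to 4.09) lay above that of DKO-severe B lineage cells (0 to 2.46 for each). That of Klrk1 (4.55 to 6.33) did too (B lineage 0.0169 to 3.72), while those of Klre1, Klrc2 and Klra7 overlapped the B lineage intervals.

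Klrd1 went the other way, at 21.9 CPM in WT (19.1 to 25.0) and 17.7 CPM in DKO-severe (16.1 to 19.3), with a log2 ratio of -0.31 (-0.54 to -0.08), which was not called. This sign did not hold in the largest subset, the cells left after those with Foxp3, with Il21 or with both Pdcd1 and Cxcr5 were set apart (1625 WT and 1448 DKO-severe cells), where Klrd1 stood at 22.3 CPM (WT) against 30.2 CPM (DKO-severe), with a log2 ratio of 0.44 (0.19 to 0.69). In DKO-severe the 326 cells with Foxp3 held 3.9 CPM and the 751 with Il21 held 8.64 CPM, against 64 and 20 such cells in WT. The Klrd1 shares in the whole gate, 6.75% (5.43 to 8.27) and 5.32% (4.36 to 6.42), overlapped the B lineage share. With cells that carried markers of other cell types left out, 738 WT and 628 DKO-severe cells remained, 3 genes could be tested, and Klrb1c (3.56) and Klrk1 (2.41) were called. Where the gates kept cells with Zbtb16, 4 genes were called and the ratio of Klrb1c was 2.51. Granulocyte markers summed to 85.5 CPM (WT) and 2975 CPM (DKO-severe) in Cd4 cells, and the 9 NK cell markers to 47.9 and 194 CPM with 1 of 9 at 0 in each mouse. Of the 5295 DKO-severe UMIs in the NK sum, Tyrobp gave 2321 and Fcer1g 2156, and which cells these came from was not tested. Klra4 had 18 (WT) and 0 (DKO-severe) UMIs and Klra8 had 0 and 1. Eomes measured 7.44 and 18.7 CPM, Cd244a 2.78 and 7.51, Klri2 0.298 and 1.61, and S1pr5 0.198 and 0.513. Ncr1, which defines NK cells, had 3 (WT) and 45 (DKO-severe) UMIs in the Cd4 gate.

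Within the DKO-severe Cd4 gate Klrb1c was spread over every subset examined, where the subsets were taken in the order given and each left out the cells of those before it. It was found in 6.32% of 95 Foxp3-positive cells (2.35 to 13.2), 12.7% of 411 cells with Il21 (9.60 to 16.3), 19.4% of 62 cells with Pdcd1 and Cxcr5, the markers of follicular helper T cells (10.4 to 31.4), and 7.56% of the 1350 remaining cells (6.20 to 9.10). In WT it was found in 0.815% of 1227 remaining cells, while the other WT subsets held 29, 13 and 5 cells with none positive, too few to set a useful limit. Klrg1 had another distribution. It was found in 7.37% of the 95 Foxp3-positive cells (3.01 to 14.6), in 0 of 411 cells with Il21 (3 cells would be 0.730%), in 0 of 62 cells with Pdcd1 and Cxcr5 and in 1.33% of the remaining cells (0.792 to 2.10). The intervals of Klrg1 in Foxp3-positive and Il21-positive cells did not overlap.

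**Figure D5:**
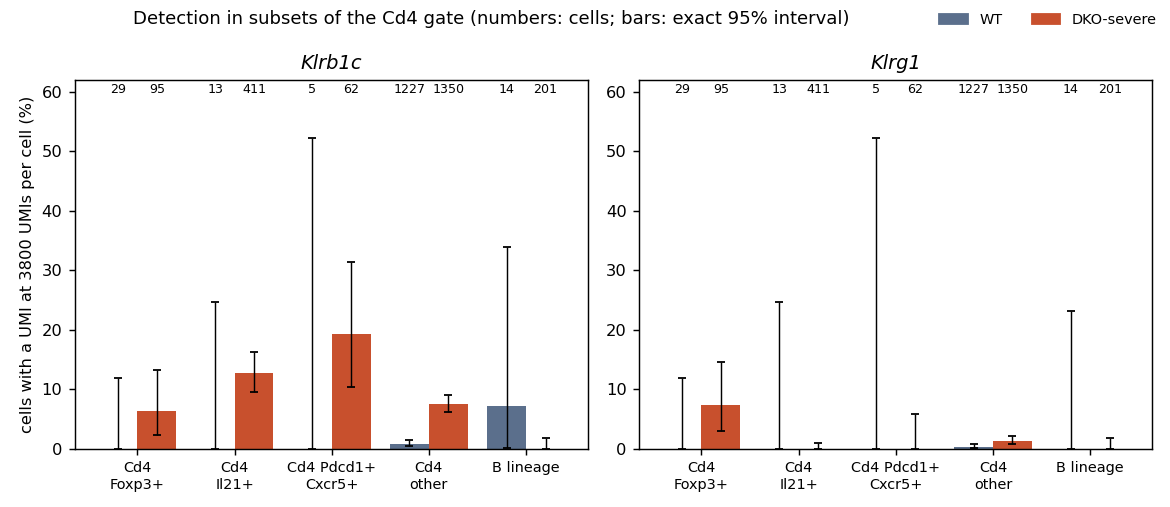
Share of Cd4 cells with a UMI of Klrb1c (left) or Klrg1 (right) after thinning to 3800 UMIs per cell (y axis, percent), by subset (x axis) and genotype (color), with B lineage cells as background; numbers at the top are cells and bars exact 95% binomial intervals. In the DKO-severe mouse Klrb1c was found in every Cd4 subset (6.32% to 19.4%), and Klrg1 in 7.37% of Foxp3-positive cells and in none of the 411 cells with Il21.

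The 8 groups (4 gates in 2 mice) were also put in order of level. For Klrk1 the DKO-severe granzyme cells led, WT granzyme cells overlapped WT innate-like cells, and these overlapped DKO-severe innate-like cells (78.8 CPM). Next came DKO-severe and WT Cd8 cells without granzyme and last the Cd4 cells, each apart from its neighbour. For Klre1 both granzyme groups stood apart from the rest. For Klrc1 the DKO-severe granzyme cells did, while WT granzyme cells (42.3 to 120) overlapped WT innate-like cells (15.9 to 43.7), and for Klrc2 both innate-like groups overlapped WT granzyme cells. For Klra7 the WT granzyme cells overlapped the groups ranked just above and just below them, and for Klrg1 each group after the granzyme cells overlapped the next. For Klrb1c the DKO-severe Cd4 cells (26.5 CPM) overlapped the WT granzyme cells (23.1 CPM).

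The genes with the most similar profile over these 8 groups were named by Pearson correlation of log2(CPM + 1) with the mean of the 9 members, among 11050 genes. These were Heatr9 (0.984), D1Ertd622e (0.980), Il18rap (0.976), which encodes a chain of the IL-18 receptor, Nbeal2 (0.969), Tbx21 (0.955), which encodes T-bet, Ncald (0.954), Icam1 (0.948), Chsy1 (0.943), Asap2 (0.941) and Hopx (0.940). For single members the closest gene was Il18rap for Klrk1 (0.986) and Klrc1 (0.973), Heatr9 for Klre1 (0.968), Sppl3 for Klrc2 (0.981), Ostf1 for Klrd1 (0.99), Pogk for Klra7 (0.981), Phf13 for Klra9 (0.926), Klf16 for Klrg1 (0.980) and Gm36723 for Klrb1c (0.996). Between members, the coefficient was 0.96 for Klrk1 and Klrc1 and 0.98 for Klrc1 and Klrc2, while it was -0.02 for Klrd1 and Klrb1c. The 8 groups share mice and depth, and the correlations are a description.

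Other genes of the same complex were taken from a fixed list of 22, of which 19 were in the matrices. In all Cd8 cells 8 of 11 tested were called higher in DKO-severe, against 4.8% of 12585 genes (median log2 ratio 1.84). Among them were the Ly49 genes Klra4 (3.35), Klra8 (3.31), Klra3 (1.84) and Klra6 (1.81), as well as Klrc3 (3.54) and Klrb1f (2.73). Without granzyme 7 of 10 were called higher, against 3.31% of 12359 genes. With granzyme none of 9 was called higher, against 2.67% of 8213 genes. Klra1 was called lower there (-2.01, from 8 WT and 28 DKO-severe UMIs), as were 2.35% of all genes. In Cd4 cells 5 of 7 were called higher, against 18.3% of 13536 genes. Klrb1a, a neighbour of Klrb1c with which it shares 3′ sequence, was among them, at 0 UMIs in WT and 196 in DKO-severe (7.18 CPM).

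Partners and ligands of the receptors were read the same way. Of 11 tested adaptor and signal genes (median log2 ratio 0.38) 2 were called higher in all Cd8 cells, against 4.8% of 12585 genes. These were Tyrobp (DAP12, 1.18) and Fcer1g (1.10), with levels of 9.84 and 22.2 CPM for Tyrobp. Without granzyme none of 11 was called higher. Granulocyte markers in all Cd8 cells summed to 77.8 CPM (WT) and 1416 CPM (DKO-severe), and their part was not tested. Hcst, which encodes the NKG2D adaptor DAP10, measured 351 and 457 CPM (0.38). Of 8 tested ligand genes (median -0.16) 1 was called higher, Clec2g (4.88), beside the same 4.8%, and H2-T23, which encodes the NKG2A ligand Qa-1, was not (-0.30). Among 11 other NK-associated receptors (median 1.24) 6 were called higher, beside the same 4.8%: Tigit (2.11), Il18rap (1.77), Cd160 (1.58), Slamf7 (1.51), Il2rb (1.45) and Cd244a (1.24). In Cd4 cells Tigit (3.29) and Il2rb (1.56) were among 7 of 12 called higher, against 18.3% of 13536 genes. Cd96 (-2.20) and Cd226 (-1.15) were called lower, against 6.28%.

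Of 10 transcription factor genes (median 0.73) 4 were called higher in DKO-severe Cd8 cells, against 4.8% of 12585 genes. These were Zeb2 (3.1), Tbx21 (1.94), Prdm1 (1.39) and Id2 (1.21), all known from effector cells. Runx3 measured 169 and 245 CPM (0.53) and was not called. Between granzyme and other Cd8 cells of the DKO-severe mouse, Zeb2 (4.46), Prdm1 (3.15), Id2 (2.81) and Tbx21 (1.71) were called higher in granzyme cells, against 6.72% of 11078 genes. Tcf7, a factor of naive and memory cells, was called lower (-1.25), against 3.73%. Runx3 measured 241 CPM without and 262 CPM with granzyme (0.12). In granzyme cells the 9 NK cell markers summed to 204 CPM (WT) and 281 CPM (DKO-severe), with 4 and 1 of 9 at 0, and Ncr1 had 1 (WT) and 0 (DKO-severe) UMIs.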

How the data were processed

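Single cells were profiled by 3′ RNA sequencing on the 10x Genomics platform (kit v3.1). Cells of both mice carried different hashtags (1 for WT, 2 for DKO-severe) and shared 1 mRNA library, so lane and sequencing run cannot differ between genotypes. The deposited counts are UMI counts per gene and barcode, made by the authors against mm10, without normalization. Per the labels the submitters' processing used Cell Ranger and Seurat, and whether intronic reads were counted is not given in the sources used here. The WT and DKO-severe matrices held 7189 and 7161 barcodes with 45294779 and 69692053 UMIs, and they shared 0 barcodes.

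Barcodes with a dominant hashtag of the other genotype (3 and 0), with fewer than 500 genes or more than 10% mitochondrial UMIs (182 and 396 in all) were left out. Scrublet, run in scanpy 1.11.5, marked 0 barcodes with its automatic threshold, so the 6% with the highest doublet scores were removed (421 and 406). Cells with fewer than 3800 UMIs (688 WT, 10.5%, and 476 DKO-severe, 7.49%) were left out of shares at equal depth, for which gates were set on the thinned counts. B lineage cells had no Cd3 UMI and 3 or more UMIs of B cell genes. Intervals were exact (Poisson, Clopper-Pearson, or conditional on the total for ratios; scipy 1.17.1), sums under 3 UMIs counted as 3, and no ratio was given where both were at or under 3. The ratio code was tested on simulated data.

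Named were the 9 members, genes of 5 lists (other receptors of the complex, adaptors, ligands, other NK receptors, transcription factors), and genes with the most similar profile among those with 200 or more UMIs. Members, lists and gates were chosen with earlier results of these data known. With 1 mouse per genotype no test or p-value was computed. Alternatives changed the doublet rule, gates, depth, total, weighting, pseudocount and filter, and left out cells with markers of other cell types or with Ncr1. Leaving out the cell with the most UMIs of a gene was chosen after seeing the data.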

Additional observations from a re-analysis of the deposited data

Results flagged for a closer look

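For 3 genes the sign of the DKO-severe over WT log2 ratio differed between gates with both intervals clear of 0, and in each case the difference between gates was not tested. Klrk1 was lower in innate-like cells (-0.59) but higher in Cd8 cells with granzyme (1.45), in Cd8 cells without granzyme (1.18) and in Cd4 cells (1.37). Klrd1 was lower in innate-like cells (-1.28) and in Cd4 cells (-0.31) but higher in Cd8 cells with granzyme (0.38) and without (0.12), sizes that were called only in innate-like cells. Klrb1c was lower in innate-like cells (-0.56) but higher in Cd8 cells without granzyme (1.93) and in Cd4 cells (3.74). The innate-like values rest on 78 WT and 111 DKO-severe cells of 1 mouse each, and the signs differed within the gates. In innate-like cells with neither Cd4 nor Cd8 UMIs the log2 ratio was 0.38 for Klrk1 and 0.28 for Klrb1c, with intervals that held 0, and -0.75 for Klrd1, while in those with Cd4 (18 WT cells) it was -2.61, -1.77 and -1.59. In Cd4 cells left after those with Foxp3, with Il21 or with Pdcd1 and Cxcr5 were set apart, Klrd1 was higher in DKO-severe (0.44).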

How the results depend on the processing

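No paired analysis was possible because each genotype is 1 mouse. In Cd4 cells, 7 members called higher became 4 when gates kept cells with Zbtb16, 2 without cells that carried other cell types' markers, and 1 with a pseudocount of 5 CPM. In granzyme-bearing Cd8 cells 6 became 1 with a gate of 4 or more granzyme UMIs, and without granzyme 7 became 3 with the pseudocount. With gates set on thinned counts, Klrc2 and Klrg1 were no longer called in granzyme cells, and Klrg1 was newly called without granzyme. In WT, granzyme against other Cd8 cells, 6 became 3 without cells that carried other cell types' markers. There Klrc1, Klrc2, Klra7 and Klrb1c were lost and Klrd1 was gained. In innate-like cells the 1 gene called lower became 0 with gates on thinned counts, 0 with equal weight per cell, and 3 without the filter on low counts (Klre1 and Klra9 were added). The ratio of Klrd1 reversed to 0.31 without cells that carried other cell types' markers, where Klrc2 was newly called. Fewer cells remained under that setting and under the stricter granzyme gate, and the cause of the other changes was not tested. The share of DKO-severe granzyme cells with 3 or more of the 9 members was 65.1%, or 75.4% without thinning, and the Klrb1c share of DKO-severe Cd4 cells was 8.97%, or 10.8% at 5000 UMIs and 15.2% without thinning, where deeper cells detect more. Over all alternatives, 478 recomputed member ratios stayed within their interval, 105 moved beyond it without a called reversal, and 1 reversed. The WT granzyme values rest on 30 cells with 0 to 89 UMIs per member.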

Other observations

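Many Cd3-positive cells had neither Cd4 nor Cd8 UMIs and lay outside the Cd4 and Cd8 gates. Gated on thinned counts these were 1466 WT and 1878 DKO-severe cells, and Klrb1c was found in 3.07% and 11.5% of them. Gated on full counts they were 1379 and 1194 cells, in which Klrb1c measured 19.3 and 42.5 CPM. Klrk1 measured 23.6 and 44.0 CPM, Klrc1 9.81 and 29.6 CPM and Klrg1 2.34 and 8.80 CPM in these full-depth cells. Ncr1 had 5 and 55 UMIs there and Trdc, the γδ receptor constant gene, 54 and 61.

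Cd8 cells without granzyme were also split by Il2rb, a chain of the IL-15 receptor, a split chosen after its values were seen. With Il2rb there were 1014 WT and 938 DKO-severe cells, and without it 2002 and 360, so ratios over the whole gate mix cell numbers with levels. The DKO-severe over WT log2 ratio of Klrk1 was 0.77 (0.51 to 1.03) with Il2rb and 0.58 (0.01 to 1.13) without. For Klra9 it was 0.64 (-0.12 to 1.43) and 3.31 (1.84 to 4.98). Klrc1, Klre1, Klrc2 and Klrb1c had ratios above 1 in both parts. In the DKO-severe mouse Klrc1 measured 35.0 CPM with Il2rb and 10.3 CPM without, and in WT 8.89 and 0.887 CPM. Klra7 measured 14.7 (WT) and 17.3 CPM (DKO-severe) in cells with Il2rb, with overlapping intervals (12.2 to 17.5 and 14.9 to 20.0). Klrd1 measured 246 CPM with and 245 CPM without Il2rb in WT, a log2 ratio of 0.01 (-0.08 to 0.09). In DKO-severe cells it measured 280 and 218 CPM, a log2 ratio of 0.36 (0.24 to 0.49) whose interval left out 0.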
